A study of Mus musculus with 6 samples.

Results

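The genes described are 10 cell-surface receptors through which blood progenitors and their myeloid offspring receive growth factor and cytokine signals. They were taken by name from a table of 27998 genes measured by single-cell RNA-seq. They are Kit and Flt3, Csf1r, Csf2ra, Csf2rb and Csf2rb2, Il3ra, Csf3r, Il6ra and Ifngr1. All 10 were found in the table, and 7 of them averaged at least 20 CPM over the libraries, where CPM is the share of a library's transcript counts scaled to 1000000. Csf2rb2, Il3ra and Il6ra averaged 15.5, 7.81 and 14.5 CPM, so counts of genes past a size are given over the 7 and again over all 10.

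The cells were iGMPs, granulocyte-macrophage progenitors from Lys-GFP mouse bone marrow (strain label C57BI/6) that self-renew because they carry HOXA9 fused to the estrogen-binding domain of a mutant estrogen receptor. In the CAF-1 OFF arm, a clone with an IPTG-inducible short hairpin RNA that targets Chaf1b, which encodes part of the CAF-1 histone chaperone, received 500 µM IPTG while estradiol at 150 ng/ml sustained HOXA9 activity. For HOXA9 OFF, a clone with the control vector was washed and grown without estradiol. Each arm had 1 library at 0, 48 and 96 h, so each of the 6 groups had 1 library, each arm rested on 1 clone, and no difference between libraries could be tested. Stem cell factor (SCF), the ligand of KIT, was in the medium of every library, from the conditioned medium of a producer line, so no sample shows these receptors without it. The arms also differed in their clones, and the reference of each later library was the 0 h library from its arm, which the 48 h and 96 h comparisons therefore share.

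KIT, FLT3 and CSF1R are receptor tyrosine kinases, which bind SCF, FLT3 ligand and macrophage colony-stimulating factor, and the KIT and FLT3 proteins are textbook markers of early progenitors. The receptors for GM-CSF and IL-3 pair a chain that recognises the cytokine, Csf2ra or Il3ra, with a common signalling chain, Csf2rb, and the mouse has a close copy of that chain, Csf2rb2, which serves IL-3 alone. Csf3r is the receptor for granulocyte colony-stimulating factor (G-CSF) and a hallmark of neutrophils, Il6ra binds IL-6 and signals through Il6st (gp130), and Ifngr1 binds interferon gamma and signals with Ifngr2.

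Values are unique molecular identifier (UMI) counts, in which each captured transcript molecule counts once, added up across all cells retained from each library and given relative to its total. At 0, 48 and 96 h the CAF-1 OFF libraries held 647, 927 and 911 kept cells, those of HOXA9 OFF held 473, 1404 and 1510, and library totals lay between 3524285 and 5589486 UMIs. Median UMIs of a cell ran from 5956 to 6571 in CAF-1 OFF, but were 8660, 3535.5 and 2043.5 in HOXA9 OFF. Chaf1b, the targeted gene, stood at 35.6, 3.22 and 6.49 CPM in CAF-1 OFF, against 51.5, 15.3 and 1.13 CPM in HOXA9 OFF, so it was lower at 48 and 96 h in both arms, although the hairpin was carried by the CAF-1 OFF clone alone. Progenitor markers were present at 0 h, with a summed level of 8064 and 7475 CPM over the 8 genes of that list, while 7 genes not used by blood cells summed to at most 0.239 CPM in any library. Intervals printed beside CPM, folds and shares are exact 95% intervals, they cover counting error only, and they say nothing of how replicate cultures would vary. In summed counts, a smaller number of cells carrying a receptor and a smaller amount of RNA per cell cannot be told apart.

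The uninduced libraries of the arms were compared first. Against CAF-1 OFF at 0 h, HOXA9 OFF at 0 h had 0 of the 7 receptors at least 2-fold higher and 0 at least 2-fold lower on the log2 ratio with 10 CPM added, while 0.752% and 0.146% of the 4789 genes averaging at least 20 CPM passed that size. The median log2 ratio of the 10 receptors was -0.11, and that of the 4789 genes was -0.04. On that scale Csf2rb stood furthest apart, with 10.7 CPM (7.79 to 14.3) in CAF-1 OFF, against 27.0 CPM (22.2 to 32.4) in HOXA9 OFF, a log2 ratio of 0.84 and a 2.53-fold (1.77 to 3.65) higher level. As a ratio of CPM, Csf2rb2 differed by more, at 1.19 and 5.73 CPM or 4.83-fold (1.81 to 16.2) higher. These levels rest on 5 and 24 UMIs. In HOXA9 OFF 1 cell held 7 of the 24, and without it the level was 4.07 CPM. In the same libraries the 8 eosinophil markers summed to 227 and 1481 CPM and the 10 mast cell and basophil markers to 260 and 794 CPM. Most of the eosinophil sums came from Prg2, at 141 and 876 CPM, and Prg3, at 74.7 and 593 CPM. Siglecf was at 11.2 and 11.7 CPM, and Epx, Ear1, Ear2 and Ear6 had at most 2 UMIs. The part of cells with these markers in the receptor differences was not tested.

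After estradiol withdrawal nearly the whole receptor set was at another level, as were many of all genes, and with CAF-1 depletion the IL-3 side of the set was. In HOXA9 OFF, 5 of the 7 receptors were at least 2-fold higher and 2 were at least 2-fold lower at 48 h, against 13% and 19.6% of all 4789 genes. At 96 h the counts were again 5 and 2, against 18.1% higher and 39.8% lower among all genes. Only Kit, Csf1r and Csf3r then lay outside the 5th to 95th percentile of all genes, which ran from -2.91 to 2.82. Over all 10 receptors, 7 were higher and 2 lower at each time, with Il3ra in neither class. In CAF-1 OFF, Csf2rb alone of the 7 passed the size at 48 h, against 2.76% of all genes higher and 0.0418% lower, and over all 10 the count was again 1. At 96 h Csf2rb again was the 1 of 7 to pass, against 5.22% higher and 0.856% lower, and over all 10 the count was 3, with Csf2rb2 and Il3ra. The median log2 ratio of the 10 receptors was 0.11 and 0.43 in CAF-1 OFF, against 1.49 and 1.80 in HOXA9 OFF, where the medians of all genes were 0.00, -0.08, -0.23 and -0.56.

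**Figure D1:**
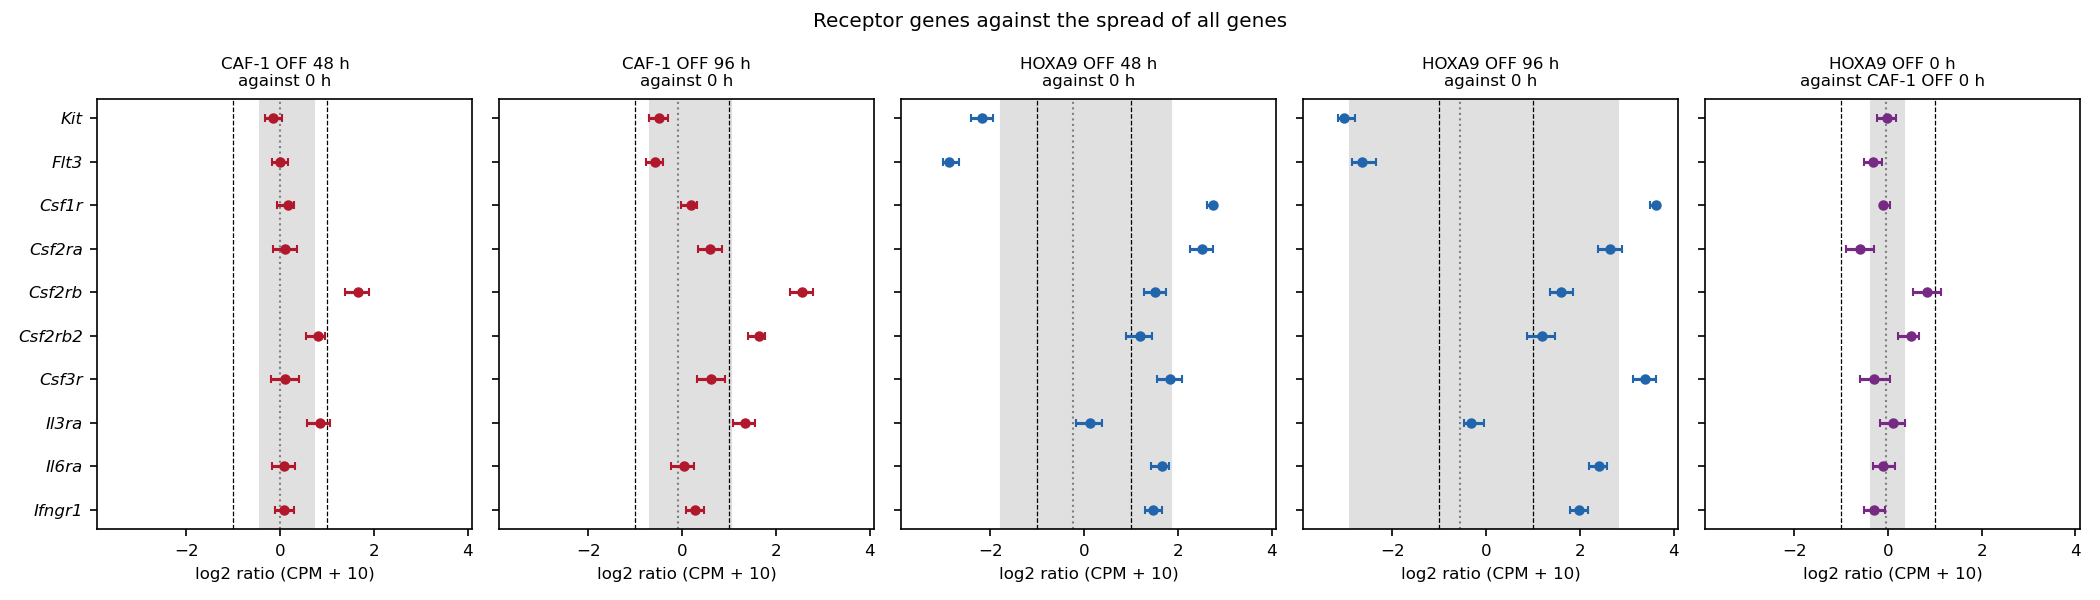
Log2 ratio of each receptor gene (rows) in each of 5 comparisons (panels), on CPM with 10 added, with exact 95% intervals for counting error (1 library per group). The grey band spans the 5th to 95th percentile of 4789 genes, the dotted line is their median and dashed lines mark 2-fold. In HOXA9 OFF at 48 h the points of Kit and Flt3 lie left of the band and those of Csf1r and Csf2ra right of it, while in CAF-1 OFF at 96 h Csf2rb, Csf2rb2 and Il3ra lie right of it. In HOXA9 OFF at 96 h only Kit, Csf1r and Csf3r lie outside the band.

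The background depends on how libraries are scaled. With TMM factors the median of all genes moved up by 0.25 at 48 h and 0.38 at 96 h in HOXA9 OFF, and with median-of-ratios factors by 0.20 and 0.44. Higher genes then made up 56.5% and 53.0% of all genes past the size at 48 h and 46.0% and 48.6% at 96 h, instead of 39.8% and 31.2% with library totals. Totals without mitochondrial and ribosomal protein genes moved the 96 h median by -0.29. Under each of these scalings 7 of the 10 receptors remained counted as higher and 2 as lower in HOXA9 OFF at both times. In CAF-1 OFF at 96 h 3 of the 10 were higher under each. At 48 h the count was 1 with library totals, TMM and median-of-ratios factors and 3 with totals without mitochondrial and ribosomal protein genes. Those totals are smaller, so every CPM rose against the fixed 10 CPM added, and 5813 genes averaged at least 20 CPM. Scaled back to the mean total, they gave a 48 h median log2 ratio of the 10 receptors of 0.10, against 0.11 with library totals.

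Kit and Flt3, the progenitor tyrosine kinases, were the members lower after estradiol withdrawal. Kit measured 80.9 CPM (72.5 to 90.0) at 0 h, 9.98 CPM (7.48 to 13.1) at 48 h and 1.13 CPM (0.309 to 2.91, from 4 UMIs) at 96 h in HOXA9 OFF. Its level at 96 h was thus 71.3-fold lower (27.6 to 263) than at 0 h, and also 8.79-fold lower (3.24 to 33.5) than at 48 h. In CAF-1 OFF, Kit measured 82.8 CPM (74.3 to 92.0), 73.9 CPM (66.9 to 81.4) and 55.6 CPM (49.5 to 62.3), a 1.49-fold lower level (1.27 to 1.74) at 96 h. The 0 h and 48 h intervals of that arm overlapped and the 96 h interval lay below both.

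Flt3 went to its low level earlier than Kit. In HOXA9 OFF it measured 77.3 CPM (69.1 to 86.2) at 0 h, 1.88 CPM (0.903 to 3.46, 10 UMIs) at 48 h, and then 3.97 CPM (2.17 to 6.67, 14 UMIs) at 96 h. The 48 h level was 41.1-fold lower (22.0 to 86.4) than at 0 h, and the intervals at 48 and 96 h overlapped. At 48 h Kit was 8.11-fold lower, with an interval starting at 6.05 and ending below that of Flt3. In CAF-1 OFF, Flt3 measured 99.4 CPM (90.1 to 109), 99.5 CPM (91.4 to 108) and 63.0 CPM (56.5 to 70.1), so that the 0 and 48 h intervals overlapped and 96 h was 1.58-fold lower (1.36 to 1.83). Both genes lie on chromosome 5 of GRCm38.p6, far from each other, Kit at chr5:75574987-75656722 and Flt3 at chr5:147330741-147400489.

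Csf1r, the receptor that directs macrophage development, went from no count to one of the largest differences of the set. It lies at chr18:61105572-61131139. In HOXA9 OFF it had 0 UMIs at 0 h, where a floor of 3 counts is 0.716 CPM, then 57.6 CPM (51.3 to 64.5) at 48 h, and after that 114 CPM (103 to 125) at 96 h. Against the floor these are 80.5-fold and 159-fold higher, and by the exact lower limits at least 65.1-fold and at least 129-fold. The 96 h level was 1.97-fold that at 48 h (1.70 to 2.30). In CAF-1 OFF, Csf1r measured 0.712 CPM (0.147 to 2.08, 3 UMIs), 1.97 CPM (0.982 to 3.52) and 2.22 CPM (1.15 to 3.89), with overlapping intervals. Of 9 monocyte and macrophage markers, 6 averaged at least 20 CPM, and in HOXA9 OFF 4 were at least 2-fold higher at 48 h (Ly6c2, Irf8, Ms4a6c and Adgre1) and 3 at 96 h (Ly6c2, Ms4a6c and Adgre1). Ccr2 was at least 2-fold lower at both times. The summed level of that list was 493, 990 and 914 CPM. The part of monocytic cells in the Csf1r level was not tested.

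Csf2ra, the chain that recognises GM-CSF, was higher in HOXA9 OFF and only slightly so in CAF-1 OFF. It measured 15.0 CPM (11.6 to 19.2), 133 CPM (123 to 143) and 147 CPM (134 to 160) at 0, 48 and 96 h of HOXA9 OFF. That is 8.82-fold (6.81 to 11.6) and 9.76-fold (7.50 to 12.9) above 0 h, and the later intervals overlapped. In CAF-1 OFF it measured 27.8 CPM (23.0 to 33.3), 30.6 CPM (26.2 to 35.5) and 46.9 CPM (41.3 to 53.1), so only the 96 h interval stood clear, at 1.69-fold (1.35 to 2.12). The uninduced libraries themselves differed 1.85-fold (1.35 to 2.55) in this gene, which is as much as the CAF-1 OFF difference.

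Csf2rb, the shared signalling chain, was higher in both arms. In CAF-1 OFF it measured 10.7 CPM (7.79 to 14.3), 54.7 CPM (48.8 to 61.2) and 112 CPM (103 to 121). The 48 h level was 5.13-fold (3.74 to 7.18) and the 96 h level 10.5-fold (7.74 to 14.5) above 0 h, with no overlap between any of the intervals. In HOXA9 OFF it measured 27.0 CPM (22.2 to 32.4), 95.3 CPM (87.2 to 104) and 102 CPM (92.1 to 114), which was 3.53-fold (2.88 to 4.37) and 3.80-fold (3.07 to 4.73) above 0 h. At 96 h the intervals of the arms overlapped, so the larger fold of CAF-1 OFF goes with its lower starting level. The eosinophil markers summed to 1481, 19335 and 3299 CPM in HOXA9 OFF, with Epx, Ear1 and Ear6 at 0 UMIs at 0 h. Their CAF-1 OFF sums were 227, 481 and 1265 CPM, mostly from Prg2 and Prg3. There Epx, Ear1, Ear2 and Ear6 had at most 2 UMIs in a library. The part of eosinophil-marker cells in the Csf2rb levels was not tested.

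Csf2rb2, the copy that serves IL-3, moved with Csf2rb at lower counts. In CAF-1 OFF it measured 1.19 CPM (0.385 to 2.77, 5 UMIs), 9.48 CPM (7.10 to 12.4) and 24.7 CPM (20.6 to 29.2), which was 20.8-fold (8.69 to 65.1) higher at 96 h. In HOXA9 OFF it measured 5.73 CPM (3.67 to 8.52), 25.8 CPM (21.7 to 30.5) and 26.1 CPM (21.0 to 32.0), or 4.56-fold (2.88 to 7.47) higher at 96 h. Csf2rb lies at chr15:78325800-78351001 and Csf2rb2 next to it at chr15:78282507-78305721. The pair are near-identical copies, so how their reads were divided is uncertain. Summed, they stood at 11.9, 64.2 and 137 CPM in CAF-1 OFF, against 32.7, 121 and 129 CPM in HOXA9 OFF, or 11.5-fold and 3.93-fold higher at 96 h. Csf2rb2 made up 10.0% (3.33 to 21.8), 14.8% (11.3 to 18.9) and 18.0% (15.3 to 21.0) of the summed UMIs in CAF-1 OFF, against 17.5% to 21.3% in HOXA9 OFF.

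A few cells carried many Csf2rb UMIs. The cell with most at 0 h of HOXA9 OFF held 11 of Csf2rb and 7 of Csf2rb2 among 8899 UMIs, with 224 UMIs of the mast cell and basophil markers and 2 of the eosinophil markers. At 48 h the top cell held 19 and 7, with 20 mast cell and basophil UMIs and 12 eosinophil UMIs. In CAF-1 OFF no cell held more than 5 Csf2rb UMIs. Leaving out every cell with 5 or more UMIs of the gene put the HOXA9 OFF levels of Csf2rb at 24.4, 87.4 and 96.1 CPM and the 96 h log2 ratio at 1.62 instead of 1.60.

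Il3ra, the chain that recognises IL-3, was higher in CAF-1 OFF and not in HOXA9 OFF. In CAF-1 OFF it measured 2.61 CPM (1.30 to 4.67), 12.9 CPM (10.1 to 16.2) and 22.2 CPM (18.4 to 26.6), which was 4.94-fold (2.60 to 10.3) higher at 48 h and 8.52-fold (4.60 to 17.5) higher at 96 h. In HOXA9 OFF it measured 3.58 CPM (2.00 to 5.90), 4.71 CPM (3.05 to 6.95) and 0.851 CPM (0.176 to 2.49, 3 UMIs), so the 0 and 48 h intervals overlapped and the 96 h ratio was 4.21-fold lower (1.19 to 22.7). Thus Il3ra, Csf2rb and Csf2rb2, the chains of the IL-3 receptors, were all above 2-fold in CAF-1 OFF at 96 h, while in HOXA9 OFF the beta chains were above it and Il3ra was not. The summed level of the mast cell and basophil markers was 260, 1430 and 4006 CPM in CAF-1 OFF, where Cpa3 and Mcpt8 were at least 2-fold higher, and 794, 510 and 79.7 CPM in HOXA9 OFF. In CAF-1 OFF, Fcer1a had no UMI until 96 h, and Gzmb, Tpsab1 and Tpsb2 had none at any time. The part of such cells in the Il3ra level was not tested.

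Csf3r, the receptor for granulocyte colony-stimulating factor, was low at 0 h and was higher again at 96 h than at 48 h of HOXA9 OFF. It measured 5.97 CPM (3.86 to 8.81), 47.1 CPM (41.4 to 53.3) and 158 CPM (145 to 172), which was 7.89-fold (5.22 to 12.4) and 26.5-fold (17.8 to 41.4) above 0 h. The step from 48 to 96 h was 3.36-fold (2.89 to 3.92), against 1.11-fold (0.986 to 1.24) for Csf2ra and 1.08-fold (0.937 to 1.23) for Csf2rb. In CAF-1 OFF, Csf3r measured 9.49 CPM (6.78 to 12.9), 11.1 CPM (8.50 to 14.2) and 20 CPM (16.4 to 24.2), a 2.11-fold (1.46 to 3.11) higher level at 96 h that stayed under the size after 10 CPM were added. The 13 late granulocyte markers summed to 31.0, 10510 and 151969 CPM in HOXA9 OFF, with all 13 at least 2-fold higher at 96 h, and their CAF-1 OFF sums were 34.2, 723 and 1212 CPM, where 4 were. The part of granulocytic cells in the Csf3r level was not tested.

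Il6ra and Ifngr1, which bind IL-6 and interferon gamma, were higher in HOXA9 OFF alone by the 2-fold size. Il6ra measured 1.43 CPM (0.525 to 3.12, 6 UMIs), 26.2 CPM (22.0 to 30.9) and 51.4 CPM (44.1 to 59.4), which was 35.9-fold (16.2 to 99.0) higher at 96 h. In CAF-1 OFF it measured 2.37, 3.04 and 2.60 CPM with overlapping intervals (1.14 to 4.36, 1.77 to 4.87 and 1.42 to 4.35). Il6st, the signalling partner of Il6ra, was at most 2.41 CPM in any library and 0.284 CPM (1 UMI) in HOXA9 OFF at 96 h. No increase of Il6st was seen beside that of Il6ra.

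Ifngr1 and its partner chain were both higher after estradiol withdrawal. In HOXA9 OFF, Ifngr1 measured 51.5 CPM (44.9 to 58.9), 162 CPM (151 to 173) and 234 CPM (218 to 251), or 4.54-fold (3.90 to 5.30) higher at 96 h. Ifngr2 measured 31.7 CPM (26.6 to 37.6), 101 CPM (92.4 to 110) and 200 CPM (185 to 215), or 6.29-fold (5.22 to 7.63) higher. In CAF-1 OFF, Ifngr1 measured 65.0, 70.0 and 80.5 CPM, at most 1.24-fold (1.06 to 1.44) higher, and Ifngr2 29.2, 42.4 and 44.3 CPM, at most 1.52-fold (1.22 to 1.90) higher. At 96 h of HOXA9 OFF, 23 cells with 5 or more Ifngr1 UMIs held 17.1% of them, and without those cells the level was 200 CPM and the log2 ratio 1.77 instead of 1.99. Ifngr1 lies at chr10:19591949-19610229, Il6ra at chr3:89869324-89913196, Csf3r at chr4:126023441-126044975, Il3ra at chr14:14345912-14355493 and Csf2ra at chr19:61217191-61228461.

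**Figure D2:**
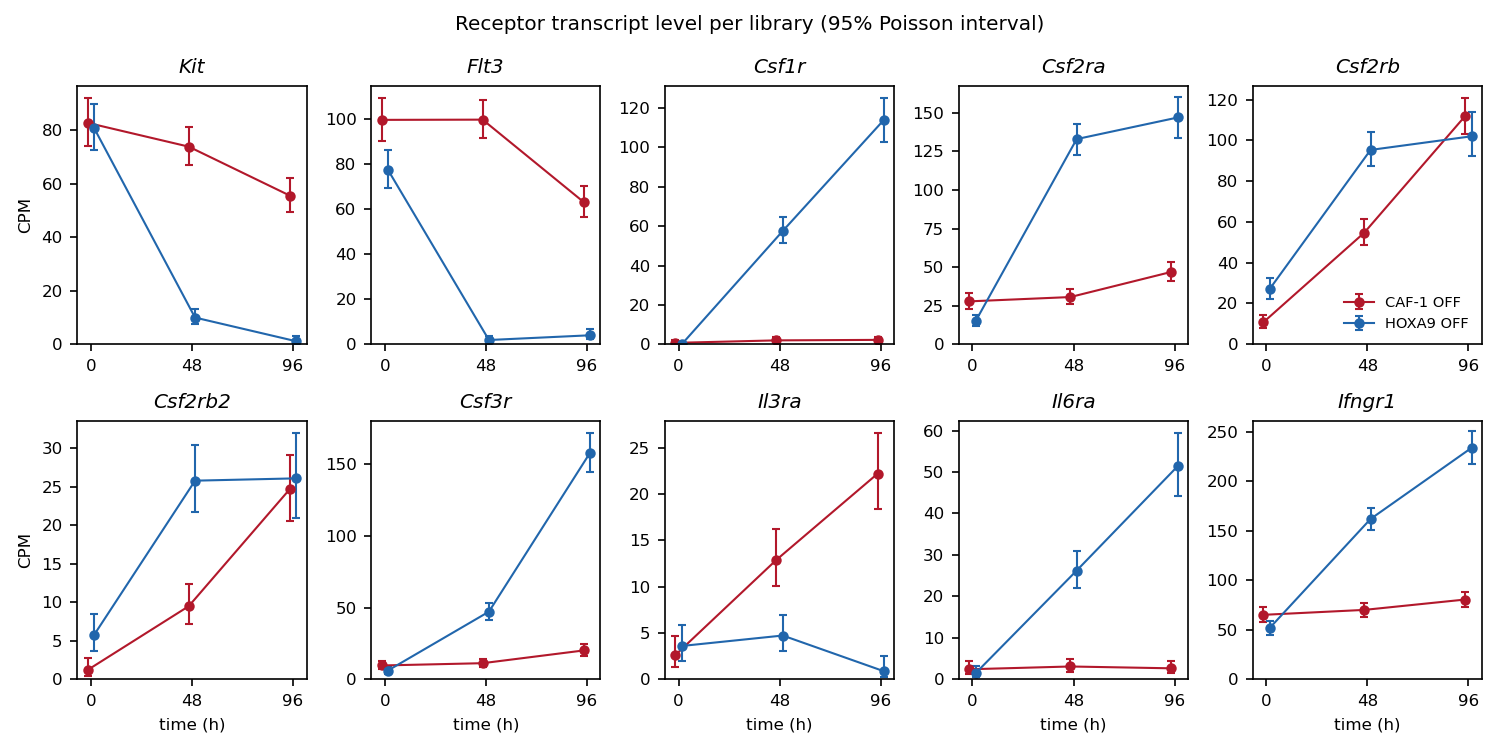
Transcript level of each receptor in CPM (linear axes from 0, scaled per panel) at 0, 48 and 96 h, red for CAF-1 OFF and blue for HOXA9 OFF, 1 library per point, with exact 95% Poisson intervals and a small sideways offset between the arms. Kit and Flt3 run down in blue, Il3ra runs up only in red to 22.2 CPM, and Csf2rb and Csf2rb2 run up in both.

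Some genes had nearly the same pattern over the 6 libraries as a receptor. For each of the 7 receptors averaging at least 20 CPM, the other 4788 such genes were ranked by the root mean square difference of their centred log2 values, and the 3 closest are named without a statement on function or control. Closest to Kit were Pold2 (0.0573), Dctpp1 (0.0650) and Rcl1 (0.0776), of which Pold2 measured 85.7, 72.5 and 58.2 CPM in CAF-1 OFF, against 74.7, 9.79 and 0.567 CPM in HOXA9 OFF. Flt3 had no match as close: 8430408G22Rik, Ccnd2 and Angpt1 stood at 0.235, 0.250 and 0.253. Csf1r was matched by Myo1f (0.0917), 1600010M07Rik (0.0980) and Sirpa (0.118), Csf3r by Susd3 (0.0940), Smox (0.130) and Dusp1 (0.132), and Ifngr1 by Rp2 (0.101), Rcsd1 (0.105) and Laptm5 (0.106).

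Closest to Csf2ra were Mpp1 (0.161), Sgk3 (0.169) and Spi1 (0.173), which encodes the factor PU.1. Spi1 measured 166, 230 and 323 CPM in CAF-1 OFF, against 154, 814 and 1049 CPM in HOXA9 OFF. Csf2rb had looser matches in Clec5a (0.212), Tm6sf1 (0.295) and Hvcn1 (0.343). Clec5a, at 32.7, 101 and 201 CPM in CAF-1 OFF, against 38.4, 156 and 209 CPM in HOXA9 OFF, was higher in both arms as Csf2rb was.

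Because Spi1 stood among the genes closest to Csf2ra, the RefSeq promoter windows of these receptors (GRCm38.p6, 250 bases before to 50 bases after an annotated start) were searched on both strands for the core letters GAGGAA of PU.1 sites. A window was found for 8 of the receptors, all but Csf2rb and Csf1r. The letters were present in 5 of these 8 genes, Kit, Csf2ra, Csf2rb2, Csf3r and Il6ra, and in 28.3% of all 32851 windows. A gene was counted if any of its windows held the letters, so the gene count and the window share are in unlike units. Shown are the GM-CSF, IL-3 and G-CSF receptor genes that were higher in HOXA9 OFF and hold the letters, 5′ to 3′ on the strand of the gene, with each match in capitals (TTCCTC is the match on the other strand). They lie at chr19:61228369-61228668 (minus strand), chr15:78305672-78305971 (minus strand) and chr4:126024409-126024708 (plus strand).
Csf2ra: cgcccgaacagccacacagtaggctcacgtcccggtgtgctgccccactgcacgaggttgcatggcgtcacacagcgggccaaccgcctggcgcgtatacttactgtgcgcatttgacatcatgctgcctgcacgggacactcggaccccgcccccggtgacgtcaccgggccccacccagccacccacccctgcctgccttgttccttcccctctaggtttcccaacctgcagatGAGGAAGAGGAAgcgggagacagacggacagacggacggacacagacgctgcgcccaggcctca
Csf2rb2: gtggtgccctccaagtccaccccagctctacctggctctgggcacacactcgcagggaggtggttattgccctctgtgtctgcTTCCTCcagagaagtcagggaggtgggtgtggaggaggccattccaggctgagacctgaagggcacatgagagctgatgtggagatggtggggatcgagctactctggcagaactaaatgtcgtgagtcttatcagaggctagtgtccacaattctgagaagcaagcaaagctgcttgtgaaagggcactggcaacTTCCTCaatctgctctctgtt
Csf3r: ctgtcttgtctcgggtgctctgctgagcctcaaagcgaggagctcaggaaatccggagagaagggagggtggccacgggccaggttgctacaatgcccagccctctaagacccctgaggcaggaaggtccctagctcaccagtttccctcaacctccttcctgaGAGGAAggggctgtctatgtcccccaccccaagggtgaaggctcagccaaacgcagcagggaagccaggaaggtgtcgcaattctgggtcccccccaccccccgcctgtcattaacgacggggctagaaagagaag
In Csf2ra the adjoining matches begin 14 and 8 bases before the start, in Csf3r the match begins 86 bases before it, and in Csf2rb2 the matches begin 167 bases before and 29 bases after it. Of the 5 genes with a window that were higher in HOXA9 OFF, Csf2ra, Csf2rb2, Csf3r and Il6ra held the letters and Ifngr1 did not, and of the lower genes Kit held them and Flt3 did not. Of the other letters searched on both strands, TTGCNNAA for C/EBP factors was present in Il3ra and in 10.8% of all windows, AGATAA for GATA factors in Il6ra and 11.2%, and TTCNNNGAA for STAT factors in Csf2rb2 and 8.3%. A match is a run of letters and not a measured site, and control of these genes by PU.1 was not tested.

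Per cell, most receptors gave few UMIs, and depth differed between libraries, so each cell was thinned to 1300 UMIs before cells with a UMI were counted. At that depth the share with a UMI follows the level of a gene. It therefore does not separate more cells carrying a receptor from more RNA per cell. Kit was found in 11.7% (9.29 to 14.5), 9.37% (7.55 to 11.5) and 6.98% (5.41 to 8.85) of cells in CAF-1 OFF. The HOXA9 OFF shares were 13.1% (10.2 to 16.5), 1.02% (0.557 to 1.70) and 0.0727% (0.00184 to 0.404), the last being 1 of 1376 cells. Without thinning the Kit shares were 40.2%, 33.0% and 26.7% in CAF-1 OFF, against 50.3%, 3.56% and 0.265% in HOXA9 OFF, in the same order. Flt3 at equal depth was in 8.26% (5.94 to 11.1) of cells at 0 h of HOXA9 OFF and in 0.363% (0.118 to 0.846) and 0.436% (0.160 to 0.947) later, or 42.1%, 0.712% and 0.861% without thinning.

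The receptors that were higher in HOXA9 OFF had a UMI in more cells at equal depth, as their levels imply. Csf1r went from 0 of 472 thinned cells, which by the floor of 3 counts allows a share with a UMI at this depth of up to 0.636%, to 8.36% (6.95 to 9.95) at 48 h and 11.8% (10.1 to 13.6) at 96 h. Csf3r was in 0.424% (0.0514 to 1.52), 6.10% (4.90 to 7.50) and 19.4% (17.3 to 21.6) of cells, and Csf2ra in 1.91% (0.876 to 3.59), 16.5% (14.6 to 18.6) and 16.2% (14.3 to 18.3). Without thinning the Csf1r share was 18.5% at 48 h and 17.9% at 96 h, from which no order is read. The unthinned shares of Csf3r were 5.29%, 15.5% and 29.6%, and those of Csf2ra 11.6%, 37.9% and 26.6%. Il6ra was in 0.212% (0.00536 to 1.17), 3.78% (2.84 to 4.93) and 6.32% (5.09 to 7.74) of thinned cells and Ifngr1 in 6.14% (4.15 to 8.70), 19.4% (17.3 to 21.6) and 22.6% (20.4 to 24.9), against unthinned shares of 1.27%, 8.97% and 10.8% for Il6ra and 36.8%, 40.7% and 34.6% for Ifngr1.

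In CAF-1 OFF the chains of the IL-3 receptors had a UMI in more cells at equal depth, again as their levels imply. Csf2rb was found in 1.90% (0.983 to 3.29), 8.16% (6.46 to 10.1) and 13.5% (11.4 to 15.9) of thinned cells and without thinning in 6.65%, 25.6% and 45.0%. Il3ra was in 0.316% (0.0383 to 1.14), 1.65% (0.928 to 2.71) and 2.99% (1.98 to 4.33) of thinned cells, and Csf2rb2 in 0 of 633 (up to 0.474% by the same floor), 1.32% (0.685 to 2.30) and 4.32% (3.09 to 5.86). In HOXA9 OFF, Csf2rb reached 11.3% (9.64 to 13.1) and 10.7% (9.10 to 12.4) at 48 and 96 h, from 2.33% (1.17 to 4.13), or 18.2%, 26.8% and 15.6% without thinning. Unthinned shares in CAF-1 OFF were 1.55%, 7.66% and 12.0% for Il3ra and 0.773%, 5.39% and 12.2% for Csf2rb2. No cell type that lacks these receptors was available in the culture as a background share.

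**Figure D3:**
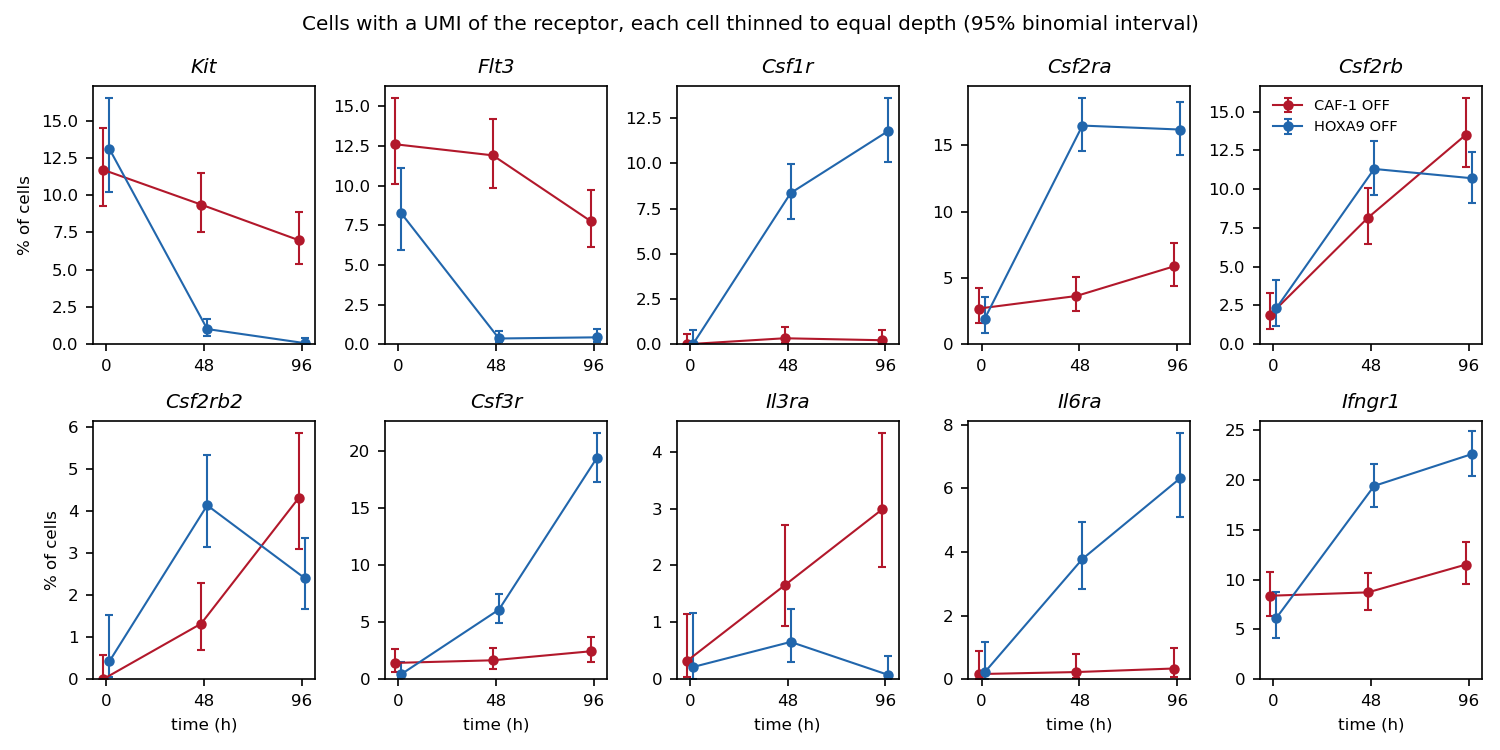
Share of cells with at least 1 UMI of each receptor (percent, axes from 0 and scaled per panel) after thinning every cell to 1300 UMIs, red for CAF-1 OFF and blue for HOXA9 OFF, 1 library per point, with exact 95% binomial intervals. Csf3r climbs in blue to 19.4% at 96 h while Csf2ra levels off near 16.2%.

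A cell held few of the 10 receptors at this depth. The mean number of receptors with a UMI per thinned cell was 0.392, 0.470 and 0.560 in CAF-1 OFF, against 0.331, 0.716 and 0.900 in HOXA9 OFF at 0, 48 and 96 h. Cells with none of the 10 made up 66.0% (62.2 to 69.7), 59.8% and 55.9% (52.6 to 59.1) in CAF-1 OFF, against 71.2% (66.9 to 75.2), 47.7% and 39.3% (36.7 to 42.0) in HOXA9 OFF. Without thinning that share in HOXA9 OFF was 12.3%, 17.9% and 25.1%, the opposite order, beside the lower median depth of the later libraries. The highest number in a cell was 5, in HOXA9 OFF at 96 h.

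How often partner chains were seen in the same cell depended on depth. Csf2ra together with Csf2rb or Csf2rb2, the GM-CSF receptor pair, was seen in 2.03% (1.36 to 2.93) and 1.82% (1.18 to 2.67) of thinned cells in HOXA9 OFF at 48 and 96 h and in 0.665% (0.244 to 1.44) in CAF-1 OFF at 96 h. Without thinning those shares were 11.7%, 5.43% and 12.5%, so the order of the arms at 96 h turned, and no order is read. Il3ra with a beta chain was seen in 8 of 902 cells (0.887%, 0.384 to 1.74) of the 96 h library of CAF-1 OFF, in 4 of 1376 in HOXA9 OFF at 48 h and in 1 of 1376 at 96 h. Without thinning it was seen in 6.15% (4.68 to 7.91) of cells of CAF-1 OFF at 96 h, and in 0.783% and 0.132% of HOXA9 OFF cells at 48 and 96 h. Of the Il3ra cells of CAF-1 OFF at 96 h, 51.4% then held a beta chain, close to the 49.7% of all cells of that library that did. Ifngr1 with Ifngr2 was seen in 6.03% (4.83 to 7.42) of cells in HOXA9 OFF at 96 h, from 0 of 472 at 0 h, and without thinning in 14.8% at 96 h, from 7.82% at 0 h. No thinned cell of any library held Il6ra and Il6st together, with 87 cells holding Il6ra and 0 holding Il6st in HOXA9 OFF at 96 h, and without thinning at most 1 cell of a library did. Kit and Csf3r, a progenitor and a granulocyte receptor, were seen together in 2 thinned cells or fewer per library. Without thinning 16, 20 and 34 cells of CAF-1 OFF and 17, 10 and 2 cells of HOXA9 OFF held both. At 0 h Kit was then present in 41.0% of the Csf3r cells of CAF-1 OFF, beside 40.2% of all its cells. In HOXA9 OFF it was in 68.0% of the 25 Csf3r cells, beside 50.3% of all cells.

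Within a library, the receptors were spread unevenly over cells. Cells were ordered by the share of their UMIs that came from a marker list, divided into 4 bins of equal size, and the lowest and highest bin were compared, as a description of cells of 1 culture. Where many cells held no UMI of a list, the lowest bin was only a part of these tied cells. In HOXA9 OFF, eosinophil markers had a UMI in 49.3% of cells at 0 h and 39.2% at 96 h. Mast cell and basophil markers had one in 28.8% at 48 h. In HOXA9 OFF at 96 h the lowest bin for the 13 late granulocyte markers had 3.21% of its UMIs in that list and the highest had 26.5%. Csf1r measured 235 CPM (207 to 265) in the lowest and 33.7 CPM (22.0 to 49.3) in the highest bin, and Csf2rb 218 CPM (192 to 247) and 45.3 CPM (31.6 to 63.0). Ifngr1 measured 383 CPM (348 to 421) and 137 CPM (112 to 166), and Csf2ra 190 CPM (165 to 217) and 85.5 CPM (66.1 to 109). Csf3r, in contrast, measured 120 CPM (101 to 142) and 122 CPM (98.3 to 149), and Il6ra 45.9 CPM (34.3 to 60.2) and 53.1 CPM (38.1 to 72.0), with overlapping intervals.

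The list itself takes up part of each total, so the same comparison was repeated with its UMIs taken out. Csf1r was then 5.29-fold lower in the highest bin, Csf2rb 3.65-fold, Csf2rb2 9.44-fold, Ifngr1 2.12-fold and Csf2ra 1.69-fold lower, while Csf3r was 1.34-fold and Il6ra 1.52-fold higher. In the 48 h library of that arm Csf3r measured 25.3 CPM (17.9 to 34.8) in the lowest and 63.6 CPM (49.6 to 80.3) in the highest bin, and Ifngr1 84.7 CPM (70.6 to 101) and 207 CPM (181 to 236). Ifngr1 thus was higher in the highest bin at 48 h and lower in it at 96 h. The list held 0.0291% and 4.30% of UMIs in the lowest and highest bin at 48 h, against 3.21% and 26.5% at 96 h. By list share the highest bin at 48 h was nearer to the lowest bin at 96 h. The bins therefore cannot be matched between the times. Median UMIs per cell were 2649 in the lowest and 1850 in the highest bin at 96 h, and 3962 and 3062 at 48 h, and their part in these differences was not tested.

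Csf2rb and its copy were uneven by eosinophil markers and by mast cell and basophil markers in HOXA9 OFF. At 96 h the highest bin for the 8 eosinophil genes had 1.34% of its UMIs in the list and the lowest 0%, and Csf2rb measured 254 CPM (221 to 290) against 45.3 CPM (31.9 to 62.5), 5.60-fold (3.94 to 8.17) higher. Csf2rb2 measured 70.8 CPM (54.1 to 91.2) against 18.4 CPM (10.3 to 30.3). At 0 h of the same arm Csf2rb measured 58.8 and 14.8 CPM in those bins. At 48 h, when the summed eosinophil markers reached 19335 CPM, the bins of Csf2rb overlapped at 110 CPM (93.0 to 129) and 101 CPM (84.4 to 120). By mast cell and basophil markers Csf2rb was 3.56-fold (2.00 to 6.75) higher in the highest bin at 0 h and 2.37-fold (1.84 to 3.08) at 48 h, and Csf2rb2 9.19-fold (2.25 to 80.9) and 3.20-fold (1.95 to 5.48). At 0 h 1 cell with 224 UMIs of that list held 11 Csf2rb and 7 Csf2rb2 UMIs, and its part in the 0 h folds was not tested. At 96 h that list was not used, since 13.1% of cells held a UMI of it. In the 48 h library, by eosinophil markers, Il6ra measured 6.64 CPM (3.04 to 12.6) in the highest and 39.1 CPM (28.9 to 51.6) in the lowest bin, and Csf3r 25.1 CPM (17.4 to 35.1) and 72.5 CPM (58.4 to 89.0). Il5ra, the chain by which eosinophils bind IL-5, was at most 4.52 CPM, at that time.

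**Figure D4:**
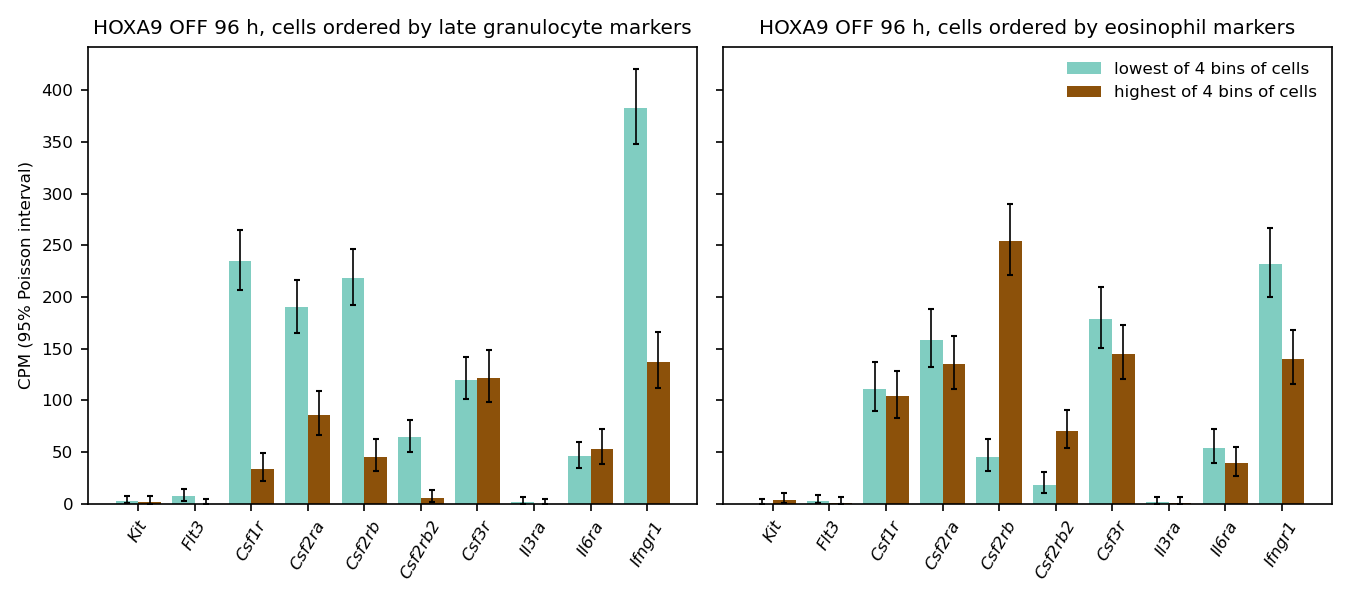
Receptor levels in CPM (bars from 0, exact 95% Poisson intervals) in the lowest and the highest bin of cells of the HOXA9 OFF library at 96 h, ordered by late granulocyte markers (left) or eosinophil markers (right), 377 cells per bin. Csf1r, Csf2ra, Csf2rb, Csf2rb2 and Ifngr1 are lower in granulocyte-rich cells, and Csf2rb and Csf2rb2 are higher in eosinophil-marker-rich cells.

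In CAF-1 OFF the receptors were uneven by early granulocyte markers. At 48 h, with 0.0191% and 0.619% of UMIs in the 6 genes of that list in the lowest and highest bin, Flt3 measured 160 and 45.6 CPM, a 3.52-fold (2.64 to 4.76) lower level in the highest. Kit measured 89.4 and 44.8 CPM, 1.99-fold (1.45 to 2.77) lower. Csf2rb went the other way, at 22.2 and 85.9 CPM or 3.87-fold (2.57 to 6.00) higher, and Csf2ra at 20.7 and 52.3 CPM was 2.53-fold (1.61 to 4.07) higher. Already at 0 h of that arm Flt3 measured 129 and 45.1 CPM and Csf2rb 5.15 and 21.1 CPM in these bins. At 96 h the bins of Csf2rb overlapped at 98.3 CPM (82.2 to 117) and 113 CPM (95.3 to 132), while Flt3 was 2.00-fold (1.48 to 2.74) and Kit 1.62-fold (1.13 to 2.34) lower in the highest. By mast cell and basophil markers, Csf2rb was 3.00-fold (2.08 to 4.42), Csf2rb2 2.74-fold (1.23 to 6.69) and Il3ra 3.31-fold (1.52 to 7.95) higher in the highest bin at 48 h. At 96 h the bins overlapped for Csf2rb, at 113 CPM (95.4 to 133) and 119 CPM (101 to 139), and for Il3ra, at 14.8 CPM (8.92 to 23.1) and 27.8 CPM (19.6 to 38.4). By megakaryocyte markers, with list UMIs taken out of the totals, Csf2rb, Csf2rb2 and Il3ra were likewise higher in the highest bin at 48 h. The folds were 3.04, 3.82 and 2.67, and at 96 h they were 1.48, 3.81 and 1.61. Intervals were not computed for these folds. At 96 h Il3ra measured 18.2 CPM in the lowest and 29.2 CPM in the highest of these bins, from which no order is read.

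Other genes of the same pathways were counted from lists chosen by function, against the shares of all genes given above for HOXA9 OFF (13% higher and 19.6% lower at 48 h, 18.1% and 39.8% at 96 h) and CAF-1 OFF (2.76% and 0.0418%, 5.22% and 0.856%). Of the 10 ligands, 5 had a UMI in any library and none averaged 20 CPM. Il6 was the one with most, at 23.5, 15.0 and 9.83 CPM in CAF-1 OFF, against 28.9, 8.10 and 5.39 CPM in HOXA9 OFF, and Csf1, the ligand of CSF1R, measured 2.15, 7.91 and 34.6 CPM in HOXA9 OFF. Kitl had 0 UMIs in all 6 libraries. Of 30 partner chains and other receptors, 7 averaged 20 CPM, and in CAF-1 OFF none of them passed 2-fold. In HOXA9 OFF, Ifngr2 and the tumour necrosis factor receptor Tnfrsf1a were higher at 48 h, and at 96 h 5 of the 7 were, with Ifnar2, Il17ra and Tnfrsf1b added and 0 lower. Tnfrsf1a measured 24.3, 123 and 189 CPM there, and Il17ra, which binds IL-17, 27.0, 40.9 and 151 CPM.

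Signalling genes downstream were counted in the same way. Of 11 JAK kinases and STAT factors, 3 averaged 20 CPM. In HOXA9 OFF, Jak1, a kinase that many cytokine receptors use, measured 35.1, 66.3 and 94.2 CPM and Stat3, a factor activated by IL-6 and G-CSF, measured 17.4, 29.4 and 49.7 CPM, both past 2-fold higher at 96 h. In CAF-1 OFF none of the 3 passed. Of 20 adaptors, kinases and phosphatases, 13 averaged 20 CPM, and the phosphatase Ptpn6 and the kinases Lyn and Fes were among those higher in HOXA9 OFF at both times, with Lyn at 25.8, 87.8 and 209 CPM. None of the 13 passed in CAF-1 OFF, while Grb2 differed between the uninduced libraries, at 33.0 CPM in CAF-1 OFF, against 77.1 CPM in HOXA9 OFF.

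Gfi1 and Pim1 passed 2-fold in CAF-1 OFF, of 19 feedback genes and genes that cytokine receptors are known to induce, of which 8 averaged 20 CPM. Gfi1, a transcriptional repressor of granulocyte precursors, measured 27.8, 86.2 and 146 CPM in CAF-1 OFF, and the kinase Pim1 measured 9.73, 23.4 and 43.6 CPM, past 2-fold at 96 h. In HOXA9 OFF, Pim1 measured 9.31, 69.7 and 68.7 CPM, whereas Gfi1 measured 59.7, 28.1 and 4.54 CPM and was lower at 96 h. Mcl1, Cbl and Ptprc were higher at 96 h of HOXA9 OFF and Myc was lower at both times, at 94.7, 10.4 and 0.567 CPM. Dusp6 was lower at 48 h, at 106, 18.8 and 97.0 CPM. Socs2, a feedback inhibitor that averaged under 20 CPM and is named after its values were seen, measured 2.37, 25.2 and 34.1 CPM in CAF-1 OFF, against 7.40, 1.32 and 4.26 CPM in HOXA9 OFF.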

How the data were processed

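Single-cell RNA-seq (10x Chromium, 3′ chemistry) was available from 6 libraries, 1 per group, with groups taken from the sample titles. Live cells were sorted by the authors, reads were mapped to mm10 (GRCm38) with Cell Ranger (3.0.1 in the submitters' processing notes), and the deposited values are whole-number UMI counts per gene and barcode. Of 7821 barcodes, 5872 were kept, with 200 to 6000 genes and at most 10% mitochondrial UMIs, the limits of the study. This removed 66.2% and 41.7% of barcodes in the 0 h libraries of HOXA9 OFF and CAF-1 OFF and 0.2% to 18.3% elsewhere. In the kept cells 16 barcode sequences occurred in more than 1 library (32 cells), and these cells were not removed. Doublets were left in. Scrublet in Scanpy 1.11.5 called 131 cells, which an alternative left out.

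Counts were summed per library. Ratios are log2 ratios after adding 10 CPM, which understates low genes. Folds are ratios of CPM. Intervals are exact 95% Poisson (CPM) or binomial (folds and shares, Clopper-Pearson), and with a library at 0 UMIs the fold was taken against a floor of 3 counts of that library. Sizes were counted at 2-fold over the 4789 genes averaging at least 20 CPM, without a test, since groups had no replicates. For shares, cells were thinned once to 1300 UMIs, leaving out 1 to 134 shallower cells per library. The step was tested on simulated counts with 200 changed genes, where 93.2% to 96.3% of the genes simulated past 2-fold were recovered (4184 to 4193 genes per simulation). These genes had at least 20 CPM at 0 h, a single size of change and counting error alone. Receptors with lower levels at 0 h, such as Csf1r and Csf3r, were not covered. TMM factors came from edgeR 4.0.16 in R 4.3.3, and other steps used Python 3.11.15. The receptors and the gene lists were chosen with earlier results of these data known. The genes named are the 10 receptors, the 3 genes closest in pattern to each of 7, partner chains, and members of pathway lists past 2-fold. Some genes of the lists are not reported here.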

Additional observations from a re-analysis of the deposited data

How the results depend on the processing

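Adding 1 CPM in place of 10 gave 2 receptors of the 7 as higher in CAF-1 OFF at 96 h and 1 between the uninduced libraries, with medians over the 10 of 0.82 (CAF-1 OFF 96 h), 1.89 and 2.09 (HOXA9 OFF 48 and 96 h) and -0.34 (uninduced). Adding 50 CPM gave 0 in CAF-1 OFF at 48 h and 3 in HOXA9 OFF at 48 h, with medians of 0.68 and 0.98 in HOXA9 OFF. TMM factors gave medians of 1.76 and 2.24 in HOXA9 OFF, median-of-ratios factors 2.31 at 96 h, and totals without mitochondrial and ribosomal protein genes 1.44 at 96 h. Keeping cells with at most 5% mitochondrial UMIs gave 2 receptors higher in CAF-1 OFF at 96 h and 1 between the uninduced libraries. A size of 1.5-fold gave 3 in CAF-1 OFF at 96 h, and 1 higher and 1 lower between the uninduced libraries. A size of 4-fold gave 0 in CAF-1 OFF at 48 h, 2 in HOXA9 OFF at 48 h and 3 at 96 h. Counting all 10 receptors gave 3 in CAF-1 OFF at 96 h. The causes of the moves under a mitochondrial limit were not tested, and the others follow from the changed constant, total or size.

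No receptor past 2-fold changed direction under the 8 alternatives of its ratio. A changed constant cannot turn the sign of a ratio, and the median log2 ratio of all genes moved by at most 0.44 under any alternative. The absence of a reversal was thus largely fixed in advance. Adding 1 CPM moved 30 gene ratios and left 20 the same, and adding 50 CPM moved 29 and left 21 the same. Using all barcodes or leaving out the cells Scrublet called kept all 10 counts within 1.5 times. Shares of cells moved with depth, in 54 of 60 values without thinning. Leaving out cells with 5 or more UMIs of a gene, summing Csf2rb with Csf2rb2 and taking list UMIs out of the totals were chosen after seeing the data. No paired analysis was possible because each group had 1 library. Genes with under 10 UMIs in a library, such as Il3ra and Il6st at 96 h of HOXA9 OFF, allow no firm size.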
